A study of Mus musculus with 25 samples.

Results

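The 8 genes described here move or bind iron, copper and zinc, or supply cystine for the antioxidant glutathione, and they were followed across dendritic cells and macrophages of the mouse Peyer's patch. They were Cp, Slc40a1, Hmox1, Tfrc, Slc11a1, Mt1, Mt2 and Slc7a11, taken by platform gene symbol from array rows that carry 1 symbol. Of these 8 genes, 7 had a row among the 19938 genes analysed, and 6 had an accepted value on every array. Slc40a1 had accepted values on the R848 arrays only, and Slc11a1, the metal transporter of phagosomes, was not analysed here. The 6 genes stand among 13179 genes with values on all arrays.

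Macrophages take up iron with transferrin through the receptor Tfrc and with the heme of dying red cells, which heme oxygenase 1 (Hmox1) opens to release iron. Ferroportin (Slc40a1) exports iron from the cell, and ceruloplasmin (Cp), a copper enzyme, oxidises the exported iron so that transferrin can bind it. Metallothioneins (Mt1, Mt2) are small cysteine-rich proteins that bind zinc and copper and are switched on through the zinc sensor MTF-1. The exchanger made by Slc7a11 imports cystine, the source of cysteine for glutathione.

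The 25 arrays came from female C57BL/6 mice aged 6 to 8 weeks, with patches of 42 mice pooled for each replicate. Untreated mice gave CD11b+ conventional dendritic cells (cDC, 5 arrays), CD8α+ cDC (3), cDC with neither marker (DN cDC, 3), and the lysozyme-rich macrophages called LysoMac, split into TIM-4- (3) and TIM-4+ cells (3). CD11b+ (3) and CD8α+ cDC (5) were also taken 9 h after oral R848, a ligand of TLR7, and the titles of these 8 samples carry the words steady state as well. The cDC gate was CD11c-high, MHC class II positive, BST2- and CD4-, with SIRPα on CD11b+ and DN cDC and absent from CD8α+ cDC. The gate for LysoMac took CD11c-high cells with low MHC class II and with CD4, BST2 and SIRPα on their surface. By their labels, CD11b+ and CD8α+ cDC and TIM-4+ LysoMac lie in the interfollicular region, TIM-4- LysoMac in the subepithelial dome, and DN cDC in either. All mice were labelled wild type, and the design calls the replicates independent.

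Signals are log2 values on which 1 unit is a 2-fold difference. The deposited columns followed 3 different row orders, so the arrays form 3 sets. The first set holds 14 arrays, of LysoMac and of untreated CD11b+ and DN cDC, another the 3 arrays of untreated CD8α+ cDC, and the last the 8 arrays taken after R848. The row names fit the R848 set, and rows of the other sets were matched to it by order. Of the 9 comparisons, 5 stay inside 1 set. The other 4 (untreated CD8α+ against CD11b+ cDC, both R848 responses and their difference) cross sets, and there array set and group cannot be told apart. As a reference for low signal, the 95th percentile of olfactory receptor genes was 4.253 in the untreated CD11b+, DN and LysoMac set, 4.135 in the CD8α+ set and 4.386 in the R848 set.

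The labels were checked against marker genes. Mertk, a macrophage receptor, was at 8.46 and 8.84 in the LysoMac groups and at 3.45 to 3.98 in every cDC group. The macrophage list separated them less, with 5 of 11 markers measured on all arrays. The mean of these 5 was 9.61 in TIM-4- and 9.76 in TIM-4+ LysoMac. It was 7.29 in CD11b+, 7.32 in DN and 5.38 in CD8α+ cDC of untreated mice. After R848 the cDC1 marker Xcr1 was at 8.59 in CD8α+ and 3.87 in CD11b+ cDC. Itgam, which encodes CD11b, was at 7.07 in untreated CD11b+ cDC but at 4.20 in those taken after R848, under the olfactory receptors' percentile. Of the erythroid list, 4 of 9 markers were measured on every array, and their mean lay between 3.49 and 3.98 on all 25 arrays.

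Promoter stretches of 3 genes are shown because Mt1 and Mt2 moved in opposite directions in the CD11b+ and CD8α+ cDC after R848, and because Slc7a11 separated the cDC groups. Capitals mark matches on either strand to the metal response element core (TGCACNC or TGCGCNC, bound by MTF-1) in the metallothionein genes and to the amino acid response element core (TGATGCAAA, bound by ATF4) in Slc7a11. Sequences and positions are those of RefSeq, build GRCm38.p6, each read 5′ to 3′ on the strand given. Start sites are those of the promoter windows, and for Mt1 and Slc7a11 they lie inside the gene spans given below, not at their ends.
Mt1, chr8:94179061-94179077, plus strand, from 28 bases before the start site: cgctgTGCACACtggcg
Mt1, chr8:94179089-94179117, plus strand, from the start site: tcTGCACTCcgcccgaaaagTGCGCTCgg
Mt2, chr8:94172390-94172406, plus strand, from 228 bases before the start site: gcctcTGCACCCggccc
Mt2, chr8:94172485-94172501, plus strand, from 133 bases before: cccttTGCGCTCagctc
Mt2, chr8:94172563-94172579, plus strand, from 55 bases before: agggcGTGTGCAggctc
Mt2, chr8:94172617-94172633, plus strand, from 1 base before: gggtcGTGCGCAggccc
Slc7a11, chr3:50443648-50443684, minus strand, from 71 bases before the start site: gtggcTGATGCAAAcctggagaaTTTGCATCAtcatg

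The metal response core matched 3 times in the 300 base window of Mt1 (250 bases before to 50 after the start site) and 4 times in that of Mt2. Of 32851 such windows, 25.7% held at least 1 match and 7.11% held 2 or more. Tfrc had 2 matches that overlap in 1 of its 2 windows, and the windows of Cp and Slc7a11 had 0. The Slc7a11 core matched 2 times on opposite strands without overlap, whereas 0.271% of windows held that core and 2 windows held it more than once. The antioxidant response core TGACNNNGC, found in 12.4% of windows, matched 1 time in Mt2 and 0 times in Mt1, Cp, Tfrc and Slc7a11. These matches describe letters only. Windows for Hmox1 and Slc40a1 were not analysed here. Mt2 (chr8:94172618-94173567) and Mt1 (chr8:94178883-94180327) are neighbours whose gene starts lie 6265 bases apart. Hmox1 (chr8:75093618-75100593) is on the same chromosome, Cp (chr3:19956933-20009750) and Slc7a11 (chr3:50364936-50499087) are on chromosome 3, Tfrc (chr16:32608896-32632794) is on chromosome 16 and Slc40a1 (chr1:45908070-45926532) is on chromosome 1.

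**Figure D1:**
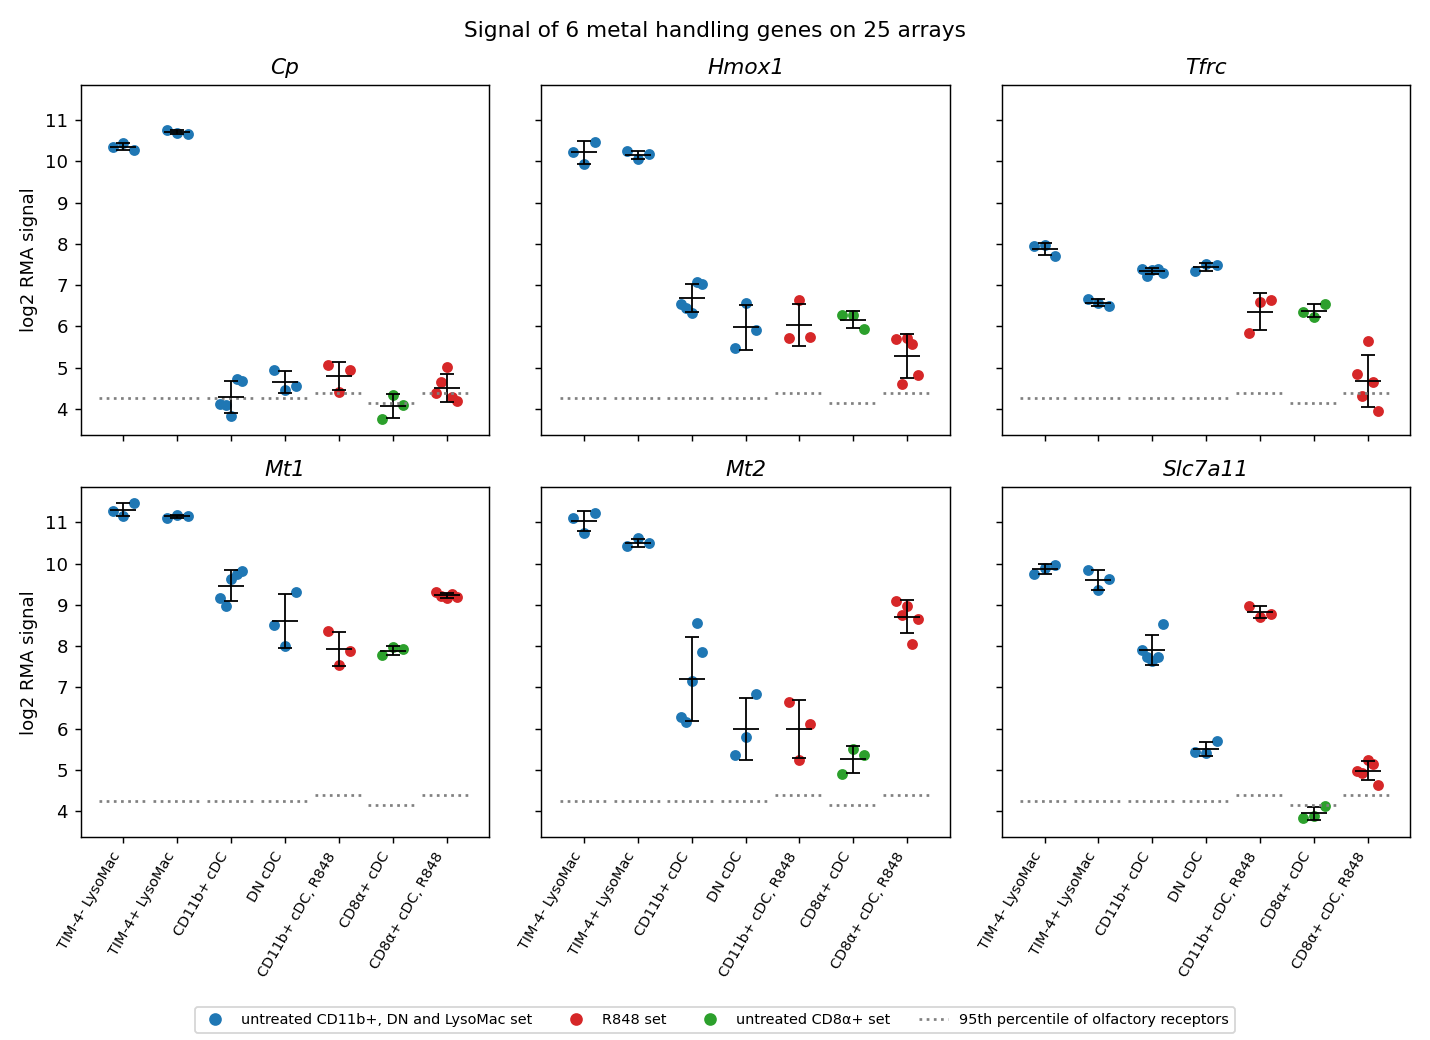
The log2 signal of 6 genes (y axis) is plotted for the 25 arrays by group (x axis), coloured by array set; points are arrays, bars the group mean ± SD, and dotted lines the 95th percentile of olfactory receptors in that set. Cp and Hmox1 lie at or above 9.93 on all 6 LysoMac arrays and at or below 7.07 on all cDC arrays.

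LysoMac differed from the cDC of the same array set in 5 of the 6 genes, all higher in the macrophages. In limma with Benjamini-Hochberg adjustment over 15397 genes, 29.8% of all genes were called between LysoMac and CD11b+ cDC (13.8% higher and 16% lower in LysoMac), against 5 of 6 members. Between LysoMac and DN cDC the same 5 members were called, beside 25.4% of all genes (12% higher, 13.4% lower). Both comparisons share the LysoMac arrays. The split against DN cDC was 1852 higher and 2057 lower. Over the 13179 genes on all arrays it was 1596 and 1750, and 2006 and 1443 over the same genes with array medians set equal. All genes together had a median of -0.01 and 0.02 log2 units in these comparisons, and the 6 members 2.67 and 4.22. The members were chosen with earlier results of these data known, so their excess over all genes is no independent result. In bulk RNA of sorted cells, fewer cells of a type and less RNA per cell cannot be told apart.

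Cp, which oxidises exported iron, had the largest difference of the 6 genes in both comparisons. Its signals in TIM-4- LysoMac were 10.35, 10.45 and 10.27, and in TIM-4+ LysoMac 10.76, 10.68 and 10.67. In CD11b+ cDC they were 4.11, 4.08, 3.82, 4.71 and 4.67, and in DN cDC 4.94, 4.46 and 4.54. The macrophage arrays thus lay more than 5 log2 units above every cDC array, and cDC arrays lay on both sides of the olfactory receptors' percentile. LysoMac exceeded CD11b+ cDC by 6.25 ± 0.17 log2 units (76.3-fold, SE, 6 against 5 arrays, adjusted p = 1.27e-17). They exceeded DN cDC by 5.88 ± 0.20 (59.1-fold, 6 against 3, adjusted p = 8.06e-16). Because the cDC signal is near that of olfactory receptors, both folds depend on the array background.

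Ferroportin, the exporter that works with Cp, could be described on untreated arrays only from a row that failed the acceptance rule, as it lay within 3 rows of a gap in the row order. On that row, Slc40a1 read 4.91, 5.47 and 5.79 in TIM-4- and 5.85, 6.63 and 5.87 in TIM-4+ LysoMac. It read 3.45, 3.67, 3.76, 3.13 and 3.27 in CD11b+ cDC and 3.73, 3.73 and 3.86 in DN cDC. The macrophage values did not overlap with those of the cDC. With every matched row admitted, Slc40a1 was higher in LysoMac by 2.30 ± 0.15 than in CD11b+ cDC (adjusted p = 2.03e-11) and by 1.98 ± 0.17 than in DN cDC (adjusted p = 4.04e-09). These values stand or fall with that row match. All cDC values on it were under the olfactory receptors' percentile, so the size of both differences depends on the array background. On the accepted R848 rows Slc40a1 was under the olfactory receptors' percentile, at 4.01, 4.23 and 4.29 in CD11b+ and at 4.03, 3.98, 3.92, 4.13 and 4.19 in CD8α+ cDC.

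Hmox1, which frees iron from heme, was also far higher in the macrophages. It read 10.24, 9.93 and 10.48 in TIM-4- and 10.25, 10.05 and 10.18 in TIM-4+ LysoMac. CD11b+ cDC read 6.55, 6.44, 6.32, 7.07 and 7.03, and DN cDC 5.47, 6.56 and 5.91. No cDC array came within 2 units of a LysoMac array, while the cDC groups overlapped with each other. The difference was 3.50 ± 0.23 against CD11b+ cDC (11.3-fold, adjusted p = 4.42e-11) and 4.21 ± 0.27 against DN cDC (18.5-fold, adjusted p = 3.14e-11).

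Tfrc, the receptor for iron-loaded transferrin, did not pass the test between LysoMac and cDC. It read 7.95, 7.98 and 7.71 in TIM-4- LysoMac, and 6.66, 6.57 and 6.50 in TIM-4+ LysoMac. In CD11b+ cDC it read 7.40, 7.23, 7.36, 7.40 and 7.29, and in DN cDC 7.33, 7.51 and 7.49. The cDC arrays lay between both macrophage groups, so the LysoMac mean of 7.23 averages a group above and a group below them. The difference was -0.10 ± 0.20 against CD11b+ cDC (adjusted p = 0.741) and -0.21 ± 0.23 against DN cDC (adjusted p = 0.577).

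Both metallothionein genes were higher in LysoMac. Mt1 read 11.29, 11.16 and 11.47 in TIM-4- and 11.11, 11.19 and 11.15 in TIM-4+ LysoMac. It read 9.17, 8.98, 9.63, 9.74 and 9.83 in CD11b+ cDC and 8.52, 8.00 and 9.31 in DN cDC. The macrophage arrays were all above the cDC arrays, by 1.76 ± 0.18 against CD11b+ (3.38-fold, adjusted p = 7.1e-08) and 2.62 ± 0.21 against DN cDC (6.13-fold, adjusted p = 1.7e-09). Mt2 read 11.12, 10.75 and 11.22 in TIM-4- and 10.43, 10.62 and 10.49 in TIM-4+ LysoMac. Its CD11b+ cDC arrays spread more widely than those of any other gene and group here, at 6.28, 6.17, 7.15, 8.56 and 7.86 (SD 1.02), and DN cDC read 5.36, 5.79 and 6.83. The groups still did not overlap, and the differences were 3.57 ± 0.36 (11.9-fold, adjusted p = 4.24e-08) and 4.78 ± 0.42 (27.4-fold, adjusted p = 5.58e-09). Mt3 and Mt4, metallothioneins of the same cluster known mainly from brain and stratified epithelium, had group means of 5.54 to 5.90 and 3.48 to 3.80 in all 7 groups and were called in neither LysoMac comparison.

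Slc7a11, the cystine importer, was high in LysoMac and split the cDC. TIM-4- LysoMac read 9.75, 9.90 and 9.97 and TIM-4+ LysoMac 9.85, 9.37 and 9.62. CD11b+ cDC read 7.90, 7.74, 7.63, 7.74 and 8.53, and DN cDC 5.42, 5.41 and 5.70. None of these 3 levels overlapped. LysoMac exceeded CD11b+ cDC by 1.83 ± 0.14 (3.57-fold, adjusted p = 3.59e-10) and DN cDC by 4.23 ± 0.16 (18.8-fold, adjusted p = 4.96e-15).

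**Figure D2:**
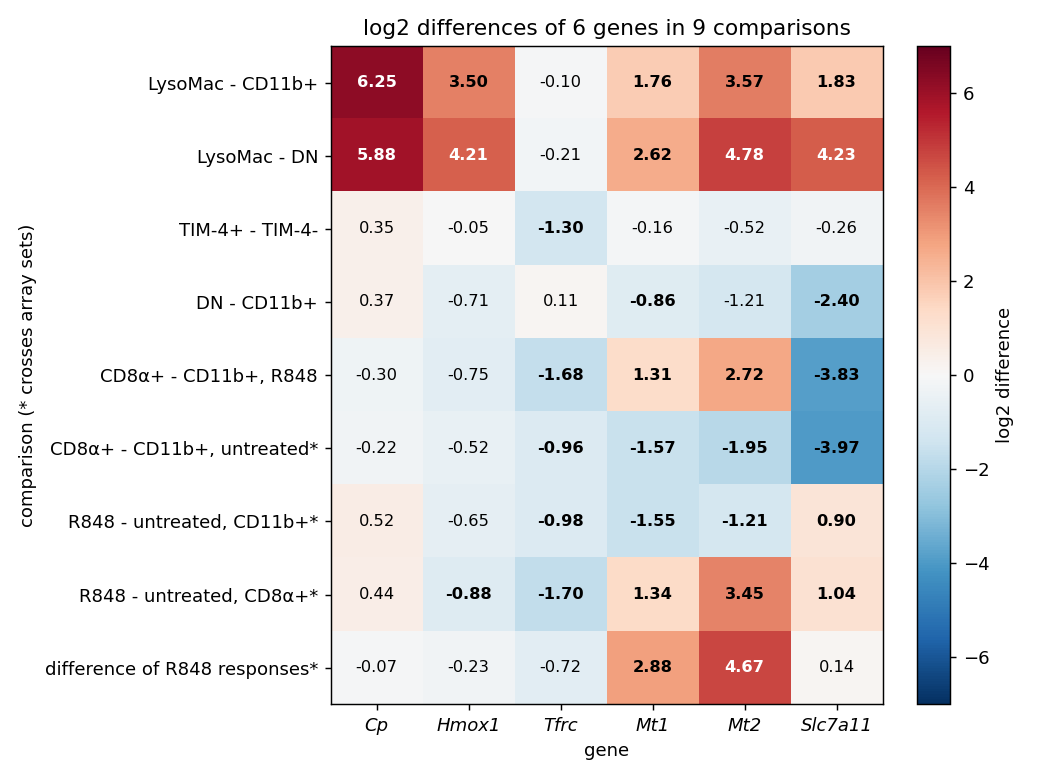
Each cell gives the log2 difference of 1 gene (columns) in 1 of 9 comparisons (rows), coloured from blue (lower) to red (higher); bold marks an adjusted p under 0.05 and an asterisk a comparison across array sets. Mt1 and Mt2 carry opposite signs in the R848 responses of CD11b+ and CD8α+ cDC.

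Other metal genes differed in both directions between LysoMac and cDC. Of 19 genes of iron uptake, storage and export, 7 were higher and 5 lower than in CD11b+ cDC (median 0.07). Slc11a2, the divalent metal importer DMT1, was higher by 1.57 ± 0.16 and Cybrd1, a ferric reductase, by 1.28 ± 0.11, while Hfe, which binds the transferrin receptor, was lower at -1.34 ± 0.11. Against DN cDC the counts were also 7 higher and 5 lower, among them Slc11a2 (1.88 ± 0.19), the plasma iron carrier transferrin (Trf, 1.49 ± 0.13) and Ncoa4, which delivers ferritin for breakdown (1.25 ± 0.09).

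Heme genes were higher for 5 of 12 and lower for 1 against CD11b+ cDC (median 0.12). Spic, the transcription factor of iron-recycling macrophages in the spleen, was higher by 2.92 ± 0.20, the biliverdin reductase Blvrb by 2.02 ± 0.23 and Abcg2, an efflux pump that carries porphyrins, by 1.22 ± 0.11. Against DN cDC 5 of 12 were higher and 0 lower, again with Spic (3.10 ± 0.23), Blvrb (2.40 ± 0.27) and Abcg2 (1.49 ± 0.13) leading. Of 8 copper genes 3 were higher and 4 lower than in CD11b+ cDC (median -0.26). The copper transporters Slc31a2 (1.63 ± 0.14) and Slc31a1 (1.07 ± 0.19) were higher and the copper chaperone Atox1 (-0.77 ± 0.07) was lower. Against DN cDC 2 copper genes were higher and 3 lower, with Cox17, the chaperone for cytochrome c oxidase, at -0.51 ± 0.12.

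Of 13 zinc and manganese genes, 5 were higher and 1 lower than in CD11b+ cDC (median 0.10), and the counts against DN cDC were the same (median 0.29). The zinc exporter Slc30a1 was higher by 1.27 ± 0.14 and 1.37 ± 0.16. Slc39a7, which releases zinc from the endoplasmic reticulum, was higher than in CD11b+ cDC by 0.92 ± 0.09, and Slc30a4, which loads zinc into vesicles, was lower at -1.18 ± 0.15. Cystine, glutathione and NRF2 genes were higher for 7 of 16 and lower for 2 against CD11b+ cDC (median 0.16). Glutathione reductase (Gsr, 1.55 ± 0.12) and Nfe2l2, which encodes NRF2 (1.06 ± 0.11), were higher, whereas Gclc, the catalytic subunit of the first step of glutathione synthesis, was lower at -1.79 ± 0.14. Against DN cDC 6 were higher and 4 lower, with Gsr at 2.25 ± 0.14, Nfe2l2 at 1.98 ± 0.12 and Gclc at -1.55 ± 0.17.

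**Figure D3:**
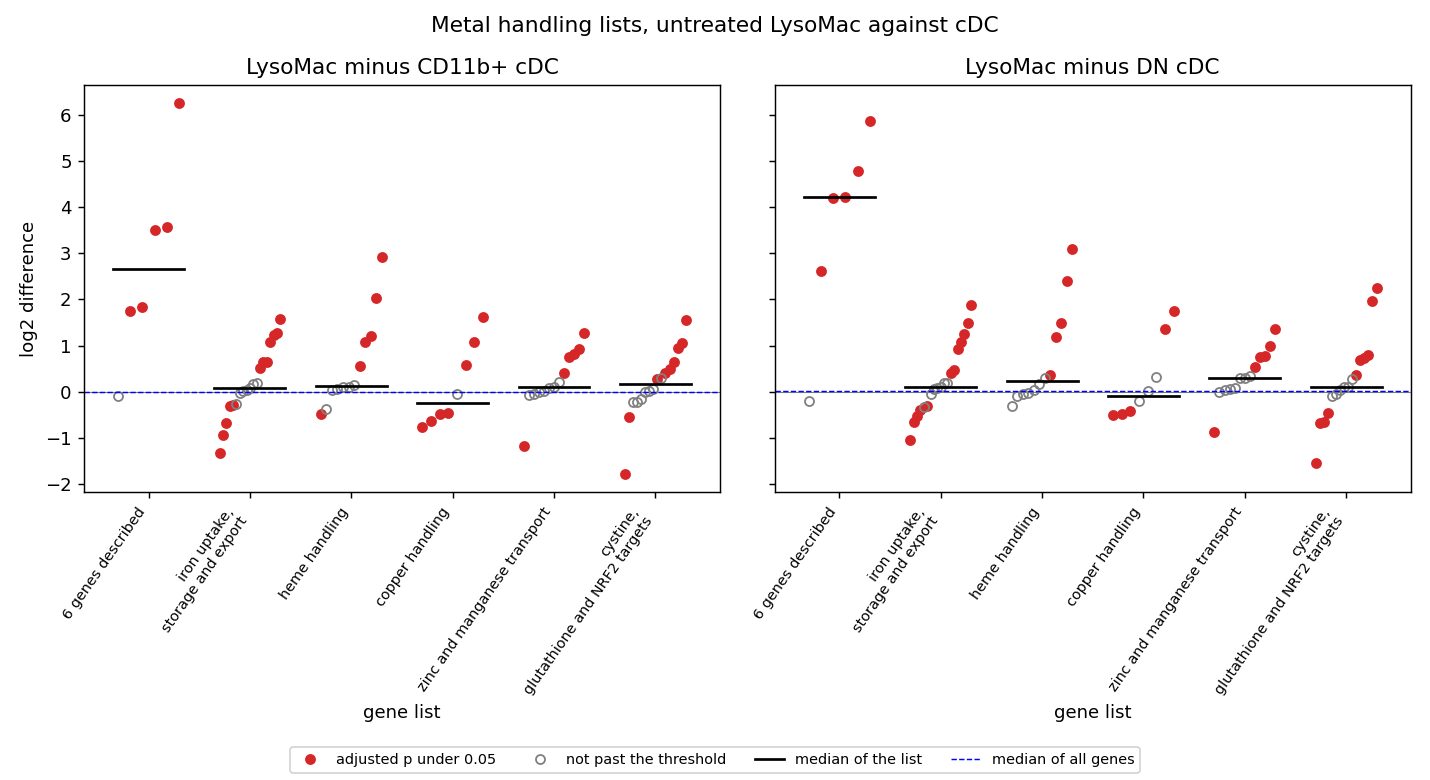
The log2 difference (y axis) of every tested gene in 6 lists (x axis) is shown for LysoMac against CD11b+ cDC (left) and DN cDC (right); red points passed an adjusted p of 0.05, open points did not, black lines are list medians and the blue dashed line is the median of all genes. The 5 pathway lists have medians between -0.26 and 0.29 and points on both sides of 0.

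Beside these differences, interferon-stimulated genes were higher in LysoMac for 4 of 4 (median 2.05), macrophage markers were higher in LysoMac for 4 of 6 measured and cDC markers lower for 4 of 6, against CD11b+ cDC. Cell cycle markers were lower for 10 of 10 (median -1.38) and immediate early genes for 6 of 8 (median -1.67). Erythroid markers had 0 of 4 called, and 3 of these 4 were under the olfactory receptors' percentile in both LysoMac groups. Their mean on the LysoMac arrays was 3.80 to 3.90, against 3.76 to 3.90 in CD11b+ cDC. Against DN cDC macrophage markers were higher in LysoMac for 4 of 6 and lower for 1, and cDC markers lower for 4 of 6 and higher for 1. Stromal and endothelial markers averaged 4.27 to 5.67 on the LysoMac arrays and 7.16 to 7.47 on the DN arrays. The part of the cell cycle, immediate early, interferon and stromal signals in the members' differences was not tested.

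TIM-4+ and TIM-4- LysoMac differed in 1 of the 6 genes, Tfrc, against 0.435% of all 15397 genes (0.182% higher, 0.253% lower). Tfrc was lower in TIM-4+ cells (-1.30 ± 0.27 log2 units, 2.47-fold, 3 against 3 arrays, adjusted p = 0.0227). All TIM-4+ arrays, given above, lay below all TIM-4- arrays. With any 1 of the 6 arrays left out the difference stayed between -1.39 and -1.25, but the adjusted p rose to between 0.0564 and 0.109, so the call rests on all 6 arrays. Cell cycle markers had 0 of 10 called between these groups (median -0.08), beside the 0.435% of all genes. Their part in the lower Tfrc was not tested.

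The other 5 genes did not pass the test. Cp was at 0.35 ± 0.23, Hmox1 at -0.05 ± 0.31, Mt1 at -0.16 ± 0.25, Mt2 at -0.52 ± 0.48 and Slc7a11 at -0.26 ± 0.18, each at an adjusted p of 1. The arrays of both groups did not overlap for Cp and Mt2, and overlapped for Hmox1, Mt1 and Slc7a11. How many of all genes lacked overlap was not counted, so a lack of overlap alone is no sign of a difference here. Of the pathway lists, Cybrd1 was the only gene called, higher in TIM-4+ cells by 1.86 ± 0.15 (adjusted p = 2.34e-07), with means of 6.31 in TIM-4+ and 4.45 in TIM-4- LysoMac. The other lists had 0 called of 12 heme, 8 copper, 13 zinc and manganese, and 16 cystine, glutathione and NRF2 genes.

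DN cDC had less Slc7a11 than CD11b+ cDC, and less Mt1 in the fit over all arrays. Both were lower, 2 of the 6 genes, against 4.21% of all genes (2.54% higher, 1.67% lower, median -0.04). Among all genes called, 391 were higher and 257 lower. Over the genes on all arrays the split was 333 and 224, and 260 and 477 over the same genes with array medians set equal. Slc7a11 differed by -2.40 ± 0.17 (5.27-fold lower, 3 against 5 arrays, adjusted p = 2.21e-09), and its arrays did not overlap. Mt1 differed by -0.86 ± 0.22 (1.81-fold, adjusted p = 0.0251) with overlapping arrays. The Mt1 call was lost without CD11b+ replicate 4 (-0.79, adjusted p = 0.0646), CD11b+ replicate 5 (-0.77, 0.0736), DN replicate 1 (-0.81, 0.115) or DN replicate 2 (-0.56, 0.239).

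Mt2 (-1.21 ± 0.43, adjusted p = 0.137), Hmox1 (-0.71 ± 0.28, 0.186), Cp (0.37 ± 0.21, 0.382) and Tfrc (0.11 ± 0.24, 0.85) did not pass. Without CD11b+ replicate 2, Mt2 was at -1.47 with an adjusted p of 0.0439. In the pathway lists Hfe (-0.95 ± 0.13), Nfe2l2 (-0.91 ± 0.13), Gsr (-0.70 ± 0.14) and Atox1 (-0.35 ± 0.09) were among those lower. The asparagine synthetase Asns, a target of ATF4, was higher by 0.70 ± 0.14. The counts were 0 higher and 1 lower of 19 iron genes, 0 and 1 of 8 copper genes and 1 and 3 of 16 cystine, glutathione and NRF2 genes, with 0 of 12 heme and 0 of 13 zinc and manganese genes called. DN arrays also carried stromal and endothelial transcripts, with 9 of 10 markers higher (median 2.88). The 8 of these measured on all arrays averaged 7.16 to 7.47 in DN and 4.20 to 5.13 in CD11b+ cDC, and 0 and 5 of the 8 were under the olfactory receptors' percentile. Epithelial markers had 3 of 9 higher and 1 lower. The part of these transcripts in the lower Slc7a11 and Mt1 was not tested.

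CD8α+ cDC had far less Slc7a11 and less Tfrc than CD11b+ cDC in both conditions. In untreated mice 4 of the 6 genes were lower in CD8α+ cDC and 0 higher, beside 47.6% of 13179 genes called (8.76% higher, 38.8% lower). This comparison crosses array sets. The median of all genes was -0.19, and the split of 1154 higher and 5118 lower became 2959 and 1959 with array medians set equal, 2540 and 2321 after quantile normalization and 2391 and 2428 after cyclic loess. Untreated CD8α+ cDC read 3.84, 3.87 and 4.11 for Slc7a11, all under the olfactory receptors' percentile, with a measured difference of -3.97 ± 0.17 (adjusted p = 5.71e-14), or -3.78 relative to the median of all genes. Its size depends on the array background, since the lower group was not above it. After R848, inside 1 set, Slc7a11 read 4.97, 4.92, 5.24, 5.14 and 4.63 in CD8α+ and 8.98, 8.70 and 8.77 in CD11b+ cDC. That difference was -3.83 ± 0.17 (14.2-fold, 5 against 3 arrays, adjusted p = 5.89e-13).

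Tfrc read 6.35, 6.23 and 6.55 in untreated CD8α+ cDC, below all CD11b+ arrays (-0.96 ± 0.24, adjusted p = 0.00252, and -0.77 relative to the median of all genes). After R848 it read 4.84, 4.30, 5.64, 4.64 and 3.94 in CD8α+ and 5.84, 6.58 and 6.64 in CD11b+ cDC. The R848 groups did not overlap, at -1.68 ± 0.24 (3.21-fold, adjusted p = 2.89e-05), and 2 of the 5 CD8α+ arrays were under the olfactory receptors' percentile. Cp was close to that percentile in every cDC group, at 3.75, 4.33 and 4.09 in untreated CD8α+ cDC, and its difference did not pass (-0.22 ± 0.21, adjusted p = 0.396). Hmox1 read 6.27, 6.28 and 5.93 in untreated CD8α+ cDC (-0.52 ± 0.28, adjusted p = 0.128).

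Markers of other cells also separated CD8α+ from CD11b+ cDC. In untreated mice macrophage markers were lower in CD8α+ cDC for 3 of 5 (median -1.81), T cell markers for 3 of 3 (median -2.13) and plasma cell markers for 4 of 5 (median -1.01). After R848 macrophage markers were lower for 5 of 10 (median -1.12), B cell markers for 5 of 5 (median -1.48) and plasmacytoid DC markers for 4 of 6 (median -1.22). Macrophage markers measured on all arrays averaged 7.19 to 7.38 in untreated CD11b+ and 5.25 to 5.54 in untreated CD8α+ cDC, and 2 of these 5 were under the olfactory receptors' percentile in each. The part of these transcripts in the lower Slc7a11 and Tfrc was not tested.

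The metallothioneins turned around between the conditions. In untreated mice Mt1 read 7.78, 7.98 and 7.92 in CD8α+ cDC, under every CD11b+ array (-1.57 ± 0.22, 2.98-fold lower, adjusted p = 6.78e-06, and -1.38 relative to the median of all genes). Mt2 read 4.89, 5.51 and 5.36, again under every CD11b+ array (-1.95 ± 0.43, 3.86-fold lower, adjusted p = 0.000938, and -1.76 relative to the median). After R848 both were higher in CD8α+ cDC. Mt1 read 9.32, 9.22, 9.17, 9.27 and 9.19 in CD8α+ against 8.36, 7.54 and 7.87 in CD11b+ cDC, higher by 1.31 ± 0.22 (2.48-fold, adjusted p = 0.000207). Mt2 read 9.10, 8.75, 8.98, 8.06 and 8.66 against 6.64, 5.24 and 6.10, higher by 2.72 ± 0.43 (6.57-fold, adjusted p = 0.000112). The R848 arrays did not overlap for either gene.

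In that within-set comparison after R848, 2 of 7 members were higher and 2 lower in CD8α+ cDC, beside 12.3% of 19938 genes called (5.71% higher, 6.58% lower, median 0.03). Hmox1 (-0.75 ± 0.28, adjusted p = 0.0913), Cp (-0.30 ± 0.21, 0.497) and Slc40a1 (-0.13 ± 0.10, 0.572) did not pass. Mtf1, the zinc sensor that binds metal response elements, was higher in CD8α+ cDC by 1.09 ± 0.10 (adjusted p = 2.24e-05). It was 1 of 4 copper list genes of 11 that were higher, with 0 lower, and the copper exporter Atp7a was another (0.60 ± 0.15). Heme genes were higher for 1 of 14 (Spic, 1.74 ± 0.24) and lower for 3, among them Flvcr1, first described as a heme exporter (-1.02 ± 0.15), and Alas1, the first enzyme of heme synthesis (-0.82 ± 0.15). Hfe (-0.93 ± 0.13) was the 1 iron gene of 25 called, and 2 of 21 zinc and manganese genes were lower. Of 19 cystine, glutathione and NRF2 genes 5 were higher, such as the sulfiredoxin Srxn1 (1.20 ± 0.13) and Gclc (0.97 ± 0.17), and 1 was lower, Maff (-0.76 ± 0.17), a small partner of NRF2.

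In untreated mice 3 pathway lists had medians below that of all genes (-0.19) in CD8α+ against CD11b+ cDC. Of all 13179 genes, 8.76% were called higher and 38.8% lower. The iron and heme medians lay close to -0.19. Iron genes had 0 of 17 higher and 8 lower (median -0.25), led by Ncoa4 (-1.06 ± 0.10), Trf (-0.82 ± 0.13) and the ferritin light chain Ftl1 (-0.64 ± 0.09). Heme genes had 0 of 9 higher and 4 lower (median -0.24), with Flvcr1 at -2.31 ± 0.15. Cystine, glutathione and NRF2 genes had 2 of 16 higher and 10 lower (median -0.39), among them Gpx4, which repairs oxidised lipids (-1.54 ± 0.16), and Gsr (-1.15 ± 0.14). Copper genes had 2 of 8 higher and 2 lower, with Slc31a2 at 1.09 ± 0.17, and zinc and manganese genes 0 of 11 higher and 2 lower. All of these values include the shift of -0.19 between the sets, and the list counts were not repeated under other scalings.

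After R848, Mt1 and Mt2 rose in CD8α+ cDC and fell in CD11b+ cDC, while Slc7a11 rose and Tfrc fell in both. In CD8α+ cDC 3 of the 6 genes rose and 2 fell, beside 56.4% of 15261 genes called (41.6% higher, 14.8% lower, median 0.18). In CD11b+ cDC 1 rose and 3 fell, beside 40.8% of 15397 genes called (17.4% higher, 23.4% lower, median -0.03). Both responses cross array sets, and their untreated and treated arrays can differ by set as well as by treatment. The split of all called genes was 6353 higher and 2258 lower in CD8α+ cDC, and 5455 and 1935 over the 13179 genes on all arrays. Over those 13179 genes it became 2850 and 2665 with array medians set equal, 2972 and 2872 after quantile normalization and 2878 and 2748 after cyclic loess. In CD11b+ cDC it was 2684 and 3599, and 2245 and 3118 over the genes on all arrays. With array medians set equal it became 3200 and 2395 over those genes.

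Mt2 rose in CD8α+ cDC by 3.45 ± 0.43 (11-fold, 5 against 3 arrays, adjusted p = 1.1e-06), or 3.27 relative to the median of all genes. Mt1 rose by 1.34 ± 0.22 (2.53-fold, adjusted p = 3.45e-05), or 1.16 relative to that median. The lowest treated array lay above the highest untreated array for both genes, as the values above show. In CD11b+ cDC Mt1 fell (-1.55 ± 0.22 log2 units, 2.92-fold, 3 against 5 arrays, adjusted p = 9.41e-06), with no overlap. Mt2 fell there as well (-1.21 ± 0.43, 2.31-fold, adjusted p = 0.0292), with overlap. The Mt2 call in CD11b+ cDC was lost without untreated replicate 4 (-0.87, adjusted p = 0.077), untreated replicate 5 (-1.05, 0.067), R848 replicate 2 (-0.84, 0.186) or R848 replicate 3 (-1.26, 0.0598).

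The difference of both responses, CD8α+ minus CD11b+, was 2.88 ± 0.31 for Mt1 (adjusted p = 7.85e-07) and 4.67 ± 0.61 for Mt2 (adjusted p = 9.38e-06). Relative to the median of all genes, which was 0.21, they were 2.67 and 4.45. These were the 2 of 6 members called, beside 33.2% of 13179 genes (27.1% higher, 6.04% lower). The split of 3573 higher and 796 lower became 1264 and 1521 with array medians set equal, 1521 and 1607 after quantile normalization and 1493 and 1570 after cyclic loess. On the untreated arrays both genes rest on the row match, and when the alignment used set means their rows were not accepted and gave no value. The values after R848 need no match. Mt3, in the same cluster, was at -0.34 ± 0.19 (adjusted p = 0.162) and Mt4 at 0.00 ± 0.14 (adjusted p = 0.983) for this difference. Mt3 rose by 0.34 ± 0.13 in CD11b+ cDC (adjusted p = 0.0484). Mtf1 rose in CD8α+ cDC by 2.17 ± 0.10 (4.5-fold, adjusted p = 8.49e-09), from a mean of 6.73 to 8.90, and was at 7.81 in CD11b+ cDC after R848. Its response in CD11b+ cDC was not analysed here. T cell markers moved in the same directions as Mt1 and Mt2, lower for 4 of 4 in CD11b+ (median -1.36) and higher for 3 of 3 in CD8α+ cDC (median 0.98), with a median of 3.65 for the difference. The 3 measured on all arrays averaged 6.14 to 7.22 in untreated and 4.76 to 4.91 in treated CD11b+ cDC, while in CD8α+ cDC their mean was 4.42 in untreated mice and 4.89 to 6.67 on the treated arrays. Their part in the metallothionein responses was not tested.

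**Figure D4:**
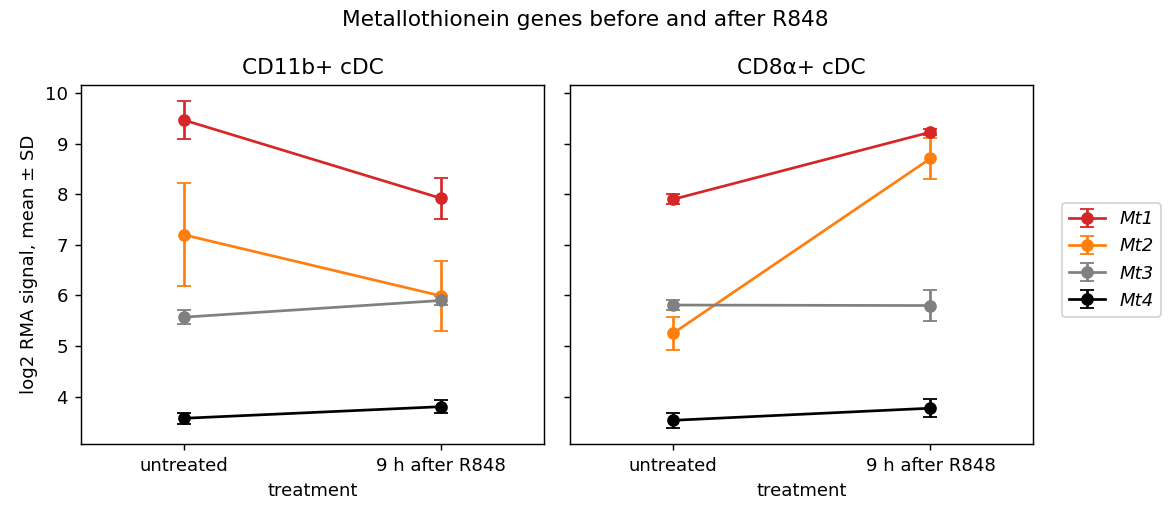
Mean log2 signal ± SD (y axis) of 4 metallothionein genes before and 9 h after R848 (x axis) in CD11b+ cDC (5 and 3 arrays, left) and CD8α+ cDC (3 and 5 arrays, right); the treated and untreated arrays belong to different array sets, and levels of different genes are not comparable. Mt2 goes from 5.25 to 8.71 in CD8α+ cDC and from 7.20 to 5.99 in CD11b+ cDC.

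Tfrc fell in both subsets, at -1.70 ± 0.24 in CD8α+ (3.26-fold, adjusted p = 4.98e-06) and -0.98 ± 0.24 in CD11b+ cDC (1.97-fold, adjusted p = 0.00238). Treated and untreated arrays did not overlap in either subset. The responses did not differ past the threshold (-0.72 ± 0.34, adjusted p = 0.102, and -0.94 relative to the median of all genes). The difference passed with array medians set equal (-0.96, adjusted p = 0.0496) and after cyclic loess (-0.92, adjusted p = 0.0457). Without CD8α+ R848 replicate 3 or CD11b+ R848 replicate 1 that difference was -0.97 (adjusted p = 0.00562) and -0.98 (adjusted p = 0.0324). Cell cycle markers were lower for 3 of 9 in CD8α+ (median -0.44) and 2 of 10 in CD11b+ cDC (median -0.35), and their part in the fall of Tfrc was not tested.

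Slc7a11 rose by 1.04 ± 0.17 in CD8α+ (adjusted p = 2.4e-05) and by 0.90 ± 0.17 in CD11b+ cDC (1.87-fold, adjusted p = 0.000169). The responses differed by 0.14 ± 0.23 (adjusted p = 0.684), a value whose sign turned to -0.10 with array medians set equal. The untreated CD8α+ signal was under the olfactory receptors' percentile, so the size of the rise there depends on the array background. Hmox1 read 5.69, 4.60, 5.72, 5.58 and 4.82 in CD8α+ cDC after R848 and fell by 0.88 ± 0.28 (1.84-fold, adjusted p = 0.0106). In CD11b+ cDC it read 5.72, 6.63 and 5.74 and did not pass (-0.65 ± 0.28, adjusted p = 0.0651). It passed there without R848 replicate 2 (-0.96, adjusted p = 0.0166) or untreated replicate 3 (-0.74, adjusted p = 0.0464).

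Cp read 5.05, 4.40 and 4.93 in CD11b+ and 4.37, 4.64, 5.02, 4.28 and 4.18 in CD8α+ cDC after R848. It overlapped with the untreated arrays in both subsets and did not pass (0.52 ± 0.21, adjusted p = 0.0509, and 0.44 ± 0.21, adjusted p = 0.074). The call in CD11b+ cDC was gained without untreated replicate 4 (0.63, adjusted p = 0.0198), untreated replicate 5 (0.61, 0.0241) or R848 replicate 2 (0.71, 0.0189). It was also gained under each other scaling (0.58 to 0.73, adjusted p 0.00551 to 0.0418) and with array weights (0.62, 0.0144). At the same value of 0.52 it passed with an intensity trend (0.0475), a filter on low values (0.0421), every matched row (0.0493) or only the genes on all arrays (0.0499). In CD8α+ cDC it was gained without untreated replicate 2 (0.58, 0.0474) or R848 replicate 5 (0.52, 0.0457), and with array weights (0.54, 0.013). Other alternatives raised the adjusted limma p of Cp, up to 0.213 in CD11b+ and 0.362 in CD8α+ cDC. Untreated arrays of both subsets lay on both sides of the olfactory receptors' percentile, so the size of the Cp responses depends on the array background. From the row of Slc40a1 that failed acceptance, both responses were 0.72 ± 0.18 (adjusted p = 0.00235 in CD11b+ and 0.00176 in CD8α+ cDC). Every treated and untreated cDC array was under its set's olfactory receptors' percentile on that row. Both responses also cross array sets, so array background, set and treatment cannot be told apart there.

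Several genes of the lists fell in both subsets. Trf was at -2.26 ± 0.13 in CD8α+ and -2.69 ± 0.13 in CD11b+ cDC, and Slc31a1, the main copper importer, at -1.75 ± 0.23 and -1.85 ± 0.23. Slc31a2 was at -1.87 ± 0.17 and -0.59 ± 0.17, and its responses differed (-1.28 ± 0.24, adjusted p = 0.00038). The zinc carrier Slc39a11 was at -0.90 ± 0.12 and -1.29 ± 0.12, and Slc30a6, which moves zinc into the Golgi, at -1.01 ± 0.19 and -0.72 ± 0.19. Slc48a1, which brings heme out of endolysosomes, was at -0.65 ± 0.27 and -1.32 ± 0.27.

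Cystine, glutathione and NRF2 genes had 12 of 18 higher and 3 lower in CD8α+ cDC (median 0.44) and 2 of 16 higher and 7 lower in CD11b+ cDC (median -0.23). Of all genes tested, 41.6% were higher and 14.8% lower in CD8α+ cDC (median 0.18). In CD11b+ cDC 17.4% of all genes were higher and 23.4% lower (median -0.03). In CD8α+ cDC Srxn1 rose by 2.17 ± 0.13, Gclc by 1.65 ± 0.17 and Gpx4 by 1.09 ± 0.16. In CD11b+ cDC Nfe2l2 (-1.12 ± 0.13), Maff (-1.01 ± 0.17) and the thioredoxin reductase Txnrd1 (-0.87 ± 0.12) fell. Nfe2l2 (-0.50 ± 0.13) and Maff (-0.56 ± 0.17) also fell in CD8α+ cDC, and Gclc also rose in CD11b+ cDC (0.44 ± 0.17). For the difference of the responses 10 of 16 were higher and 2 lower (median 0.61, against 0.21 over all genes), led by the peroxiredoxin Prdx1 (1.58 ± 0.21), Gsr (1.49 ± 0.20) and Gpx4 (1.45 ± 0.22).

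The lists below stand beside 41.6% of all genes higher and 14.8% lower in CD8α+ cDC (median 0.18). The shares in CD11b+ cDC were 17.4% and 23.4% (median -0.03). Iron genes had 9 of 20 higher and 3 lower in CD8α+ (median 0.19), where Ncoa4 rose by 1.53 ± 0.10 and Hfe fell by 1.25 ± 0.13. In CD11b+ cDC they had 5 of 19 higher and 5 lower (median -0.04). There Fbxl5, which marks the iron regulator IRP2 for breakdown, rose by 0.91 ± 0.11, and the mitochondrial iron importer Slc25a37 fell by 1.10 ± 0.23. Ncoa4 (0.71 ± 0.10) and Hfe (-0.68 ± 0.13) moved the same way in CD11b+ cDC, and Fbxl5 also rose in CD8α+ cDC (1.22 ± 0.11). Heme genes had 2 of 10 higher and 2 lower in CD8α+ (median 0.13) and 1 of 12 higher and 4 lower in CD11b+ cDC (median -0.27). Flvcr1 rose in CD8α+ cDC by 0.98 ± 0.15 and Spic in CD11b+ cDC by 1.02 ± 0.24. Copper genes had 5 of 10 higher and 3 lower in CD8α+ (median 0.21) and 2 of 8 higher and 3 lower in CD11b+ cDC (median -0.08). Zinc and manganese genes had 3 of 14 higher and 4 lower (median 0.00) and 1 of 13 higher and 5 lower (median -0.29).

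**Figure D5:**
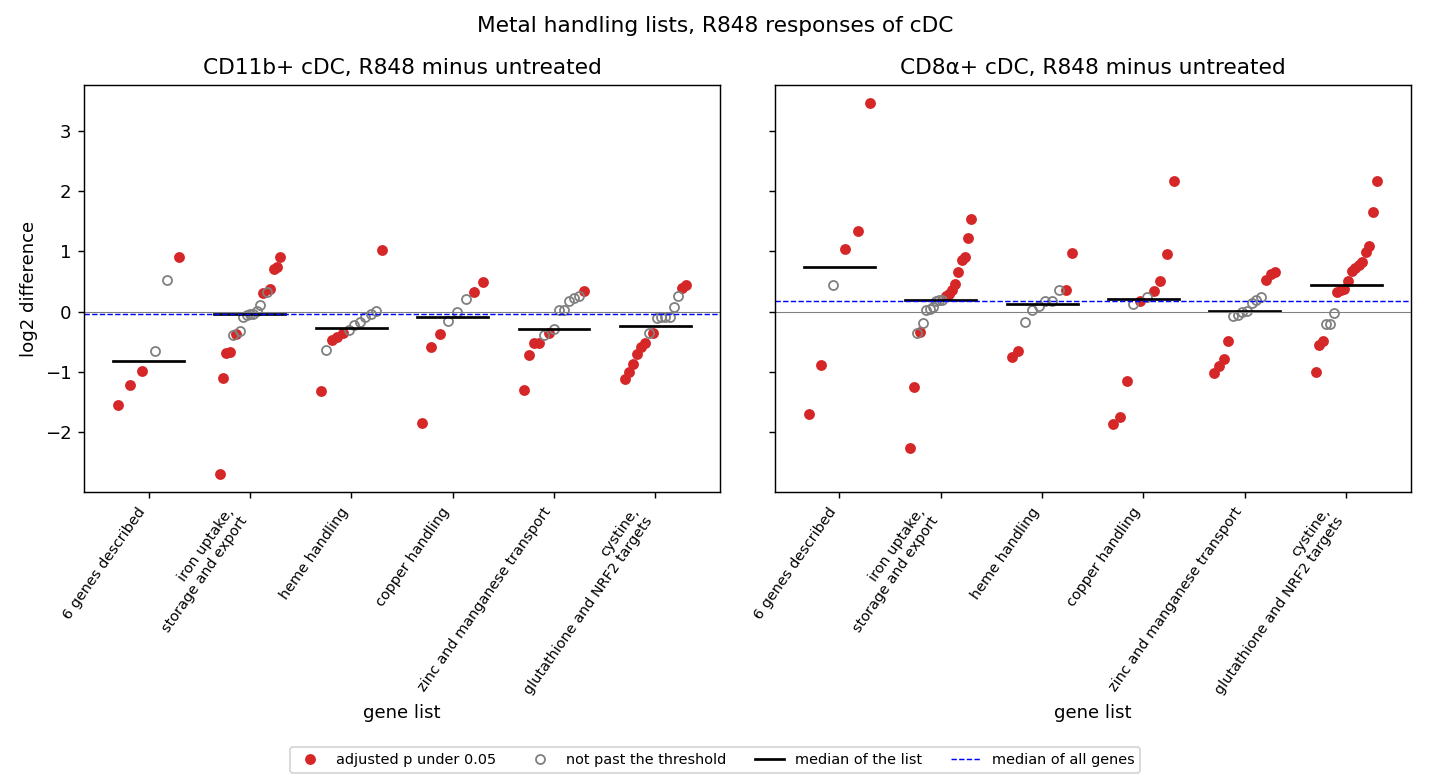
The log2 difference (y axis) between R848 and untreated arrays is shown for every tested gene of 6 lists (x axis) in CD11b+ (left) and CD8α+ cDC (right), with red points past an adjusted p of 0.05, open points not past it, black list medians and the blue dashed median of all genes. The cystine, glutathione and NRF2 list has a median of -0.23 on the left and 0.44 on the right, against -0.03 and 0.18 over all genes.

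Transcripts of other cells moved with R848. B cell markers were higher for 5 of 5 in CD11b+ (median 2.06) and 4 of 4 in CD8α+ cDC (median 1.52), and plasma cell markers for 3 of 5 (median 2.04) and 4 of 5 (median 1.92). The 4 B cell markers measured on all arrays averaged 5.59 to 6.32 in untreated and 7.38 to 8.07 in treated CD11b+ cDC, and 4.38 to 4.96 and 6.02 to 6.88 in CD8α+ cDC. Of these 4, 1 was under the olfactory receptors' percentile in untreated CD8α+ cDC and 0 in the other 3 groups. Macrophage markers averaged 5.25 to 5.54 in untreated and 4.65 to 6.23 in treated CD8α+ cDC, over the 5 measured on all arrays. The subset markers moved too. cDC2 markers were lower for 3 of 4 in CD11b+ cDC after R848 (median -2.59), with a mean that went from 7.02 to 5.00 and 3 of 4 under the olfactory receptors' percentile, Itgam among them. cDC1 markers were lower for 3 of 4 in CD8α+ cDC (median -2.05), with a mean of 9.77 before and 7.75 after. Epithelial markers were lower for 4 of 9 in CD11b+ cDC (median -1.32). Immediate early genes were lower for 5 of 8 in CD11b+ and 4 of 8 in CD8α+ cDC, and interferon-stimulated genes higher for 4 of 4 and 4 of 5. The part of these signals in the metallothionein, Tfrc and Slc7a11 responses was not tested.

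The groups were ordered by level across the 3 array sets, so steps between sets cannot be told apart from the sets. Over the 7 groups, Cp, Hmox1, Mt1, Mt2 and Slc7a11 stood highest in the LysoMac groups, and the lower of these was apart from the next group for each of the 5 genes. How many of all genes were likewise apart was not counted, so this order is a description only. For Cp all cDC groups overlapped with their neighbours in order. For Mt2 the treated CD8α+ cDC came next after LysoMac, by 1.80 log2 units below and without overlap, and for Mt1 they overlapped with untreated CD11b+ and DN cDC. Slc7a11 fell in steps that did not overlap from LysoMac to treated CD11b+, untreated CD11b+, DN, treated CD8α+ and untreated CD8α+ cDC. Of these steps, those from LysoMac to treated CD11b+, from treated to untreated CD11b+, from DN to treated CD8α+ (0.53) and from treated to untreated CD8α+ cDC cross sets, and the last group was under the olfactory receptors' percentile. Tfrc alone had a cDC group between the LysoMac groups, and its lowest group, treated CD8α+ cDC, was apart from all others.

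Over the 14 arrays of LysoMac, CD11b+ and DN cDC from untreated mice, the genes most like each member were named by Pearson correlation among 1726 genes. Cp was most like Mertk (0.997), Serinc3 (0.996) and Cx3cr1 (0.995). Hmox1 was most like Grina (0.995), Gpnmb (0.991) and Kcnj10 (0.990). Mt1 was most like Dusp3 (0.985), Ltc4s (0.983) and Clec5a (0.981), and Mt2 like Ltc4s (0.991), Agpat5 (0.986) and Cd79b (0.984). Slc7a11 was most like Lyz1 (0.975), Anxa3 (0.975) and Clec7a (0.968). All 5 patterns share the gap between LysoMac and cDC. Tfrc, without that gap, reached lower values, with Bst1 at 0.734, Cd74 at 0.620 and 1700025G04Rik at 0.618. The arrays share 1 set and 4 groups, and the values are a description.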

How the data were processed

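Peyer's patch cells were profiled on Affymetrix Mouse Gene 1.0 ST arrays after CD11c bead enrichment, sorting and amplification of 2 to 20 ng of RNA, per the labels' protocols. The authors deposited log2 signals made with RMA in Affymetrix Expression Console 1.4.1, per the submitters' processing notes. Whether the authors normalized the 3 array sets together is not stated in the labels or notes. Array medians were 4.684 to 4.777 in the R848 set, 4.536 to 4.623 in the untreated CD8α+ set and 4.77 to 4.923 in the other set. No depth applies to arrays, and their number limits the precision.

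Arrays correlated over the deposited rows at 0.9379 or more within a set and 0.07546 to 0.2247 across sets. After leaving out 6617 rows that precede any annotated row, 28939 rows were matched to the R848 order by a monotone alignment. A row was accepted where 3 settings gave 1 partner, it lay 3 or more rows from a gap, its 10 neighbours on each side correlated at 0.8 or more, and a direct alignment of both untreated sets gave the same partner. This kept 20963 rows (72.44%) and, for untreated CD8α+ cDC, 20842 (72.02%), against 153 and 118 with rows rolled out of place. Aligned clusters of 1 gene correlated at 0.7986 and 0.8184, against 0.1439 and 0.08125 as deposited. Rows were matched by level to the R848 set, where such clusters correlated at 0.8299, so these correlations are no independent check. The matching compares mean levels, so it can lose rows with large differences.

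Group means were compared with limma 3.58.1 (R 4.3.3) over all 25 arrays, with moderated variances and Benjamini-Hochberg adjustment over all genes tested, at a threshold of 0.05. The script was tested on simulated data. Genes of the lists were named where they were among the 3 largest called differences of a list and comparison. Mt3, Mt4 and the marker genes were named after their values were seen. The members and lists were chosen with earlier results of these data known. The labels do not say that replicates share a number by pool or day. Deviations of same-numbered samples from their group means had a median correlation of -0.0196 (65 pairs, 10 over 0.1). For differently numbered samples the median was -0.00317 (200 pairs, 22 over 0.1). No 2 arrays held identical values, and each correlated at 0.9818 or more with the rest of its group. Alternatives covered scaling, array weights, filters, row acceptance, a replicate block and leaving out each array. The scaling alternatives used the 13179 genes with values on all arrays, and that gene set with values as deposited was an alternative chosen after seeing the data.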

Additional observations from a re-analysis of the deposited data

Results flagged for a closer look

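The R848 responses of CD11b+ and CD8α+ cDC differed for both metallothionein genes, by the interaction term of the limma fit. They were the 2 of 6 members called, beside 33.2% of 13179 genes (27.1% higher, 6.04% lower, median 0.21). The CD8α+ minus CD11b+ difference was 2.88 ± 0.31 for Mt1 (adjusted p = 7.85e-07), with a rise of 1.34 in CD8α+ cDC and a change of -1.55 in CD11b+ cDC. For Mt2 it was 4.67 ± 0.61 (adjusted p = 9.38e-06), with 3.45 and -1.21. When the alignment used set means, neither gene had an accepted row. Over the alternatives that gave a value, the adjusted p lay between 1.68e-07 and 1.88e-05 for Mt1 and between 1.41e-06 and 0.000269 for Mt2. The untreated arrays of both subsets belong to different sets, while the treated arrays share 1 set, in which both genes were higher in CD8α+ cDC. Dixon's test for single arrays far from their group, run on 13 groups of the members, found 0. It covered only untreated CD11b+ and treated CD8α+ cDC, with 5 arrays each, and the groups of 3 arrays were not tested.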

How the results depend on the processing

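Of the 32 member differences called, 29 kept direction and call under every alternative that gave a value, and 0 of the 32 reversed. The 3 others were Mt1 in DN cDC, Mt2 in the R848 response of CD11b+ cDC and Tfrc in TIM-4+ LysoMac. Over all 1521 alternative values, 1437 kept their side of the threshold or count, 20 weakened, 21 strengthened, 29 counts moved and 14 differences, none called, changed sign. With the replicate number as a block, Mt1 in DN cDC was -0.76 (adjusted p = 0.0745), leaving 1 member called, and Mt2 in CD11b+ cDC after R848 was -0.99 (0.0907). Fitting only the groups compared left 25 genes for TIM-4+ LysoMac, and 305 genes and 1 member for DN cDC, with Mt1 at an adjusted p of 0.264, and Mt2 in CD11b+ cDC at 0.138. Quantile normalization gave 0.0602 and array weights 0.074 for that Mt2 response. Mt1 and Mt2 were not accepted when set means were used in the alignment, so the members called fell to 3 (both LysoMac comparisons), 1 (DN), 2 (untreated CD8α+ against CD11b+ cDC), 2 (R848 in CD11b+ cDC) and 0 (difference of responses). The scalings tested only the 13179 genes on all arrays, and that restriction alone, chosen after seeing the data, called 762 higher and 877 lower for CD8α+ against CD11b+ cDC after R848, where a common median gave 1539. In the untreated comparison every matched row gave 9608. For R848 in CD8α+ cDC the restriction alone gave 5455 and 1935, a common median 5515 in all, cyclic loess 5626 and a filter on low values, which tests fewer genes, 5635. The difference of responses moved to 2785 (common median) and 6885 (every matched row).

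Signs turned for uncalled values: Tfrc in DN cDC at -0.015 (replicate block), Cp in untreated CD8α+ cDC at 0.031 (common median) and 0.028 (cyclic loess), and Slc7a11 in the difference of responses at -0.10, -0.066 and -0.060 (common median, quantile, cyclic loess). With 1 array left out, Hmox1 in TIM-4+ LysoMac ranged from -0.20 to 0.077, and in the difference of responses Cp ranged from -0.27 to 0.062, Hmox1 from -0.38 to 0.073 and Slc7a11 from -0.020 to 0.22. Members called then ranged from 0 to 0 (TIM-4) and 1 to 3 (DN), and genes called for TIM-4 from 43 to 70. The cause of these shifts was not tested, except that set means remove both metallothionein rows.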
